A study of Mus musculus with 6 samples.

Results

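Pattern recognition genes were examined in type 2 conventional dendritic cells (cDC2s) of the mouse spleen, antigen-presenting cells that need the transcription factor IRF4 for part of their functions. RNA-seq libraries came from 3 CD11c-Cre Irf4fl/fl samples, called IRF4-deficient here, and from 3 wild-type (WT) samples, all on the C57BL/6 background. The floxed Irf4 allele is recombined wherever the CD11c (Itgax) promoter drives Cre, which includes other CD11c-expressing cells. No group carried Cre alone, so effects of the transgene cannot be told apart from loss of Irf4. The labels give neither the animal behind each library, nor its age, nor the sort gate. The p-values therefore rest on library-to-library spread, part of which may be technical. The gene set was a list of 38 Toll-like receptors, cytosolic sensors and their adaptors. A gene counted as a member when its row in the deposited count table held at least 10 counts over the 6 libraries. All 38 genes met this among the 14535 rows, 37 by their symbol and Mb21d1, the gene of the DNA sensor cGAS, under the older name E330016A19Rik.

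Toll-like receptors (TLRs) recognise microbial products at the cell surface or inside endosomes. The surface receptors bind lipids and proteins of the microbial envelope, and the endosomal ones bind nucleic acids or, in the mouse, a parasite protein. Nearly all signal through the adaptor MyD88 and the kinases of the IRAK family, while TLR3 uses the adaptor TRIF. Cytosolic sensors act apart from these. NOD-like receptors respond to bacterial cell wall fragments or build inflammasomes, RIG-I-like receptors bind viral RNA and signal through MAVS, and cGAS binds DNA and signals through STING. Dendritic cell subsets are known to differ in these receptors: in mouse spleen TLR3 is typical of type 1 conventional dendritic cells (cDC1s), while TLR5 and TLR7 are found in cDC2s.

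Library totals lay between 7421605 and 11459920 counts. Irf4 fell to 90.8, 65.3 and 84.0 CPM in IRF4-deficient replicates 1 to 3, against 292, 296 and 345 CPM in WT replicates 1 to 3 (CPM is a gene's share of its library total, scaled to 1000000 counts with edgeR's TMM factors). The groups did not overlap (log2 fold change -1.95, SE 0.12, edgeR adjusted p = 1.45e-09), so each library matched its label. The defining cDC2 genes Itgax, Itgam and Sirpa were abundant in every library. The 10 cDC2 markers summed to 10119 to 10632 CPM in IRF4-deficient libraries, against 9541 to 10283 CPM in WT libraries, and H2-Ab1 was the largest part. Single markers changed within this similar sum, with 2 called higher (Itgax and Itgam) and 4 lower (Cd209a, Zbtb46, Flt3 and H2-Ab1). Itgam rose 3.03-fold and Itgax 1.22-fold. Cd209a fell 2.48-fold, Zbtb46 1.92-fold, Flt3 1.65-fold and H2-Ab1 1.19-fold. T cell markers summed to at most 17.9 CPM in an IRF4-deficient library and 14.2 CPM in a WT library, and those of neutrophils and NK cells to less in each library. B cell markers summed to 109 to 146 CPM in IRF4-deficient libraries, against 100.3 to 171 CPM in WT libraries. Erythroid markers summed to 17.3 to 47.5 CPM in IRF4-deficient libraries, against 28.7 to 67.3 CPM in WT libraries. For plasmacytoid dendritic cells the sums were 203 to 230 CPM in IRF4-deficient libraries, against 214 to 251 CPM in WT libraries. Of their 6 tested markers, 1 was called higher (Siglech) and 1 lower (Ccr9). The 12 red pulp macrophage markers stood apart: they summed to 1697, 2436 and 3169 CPM in IRF4-deficient replicates 1 to 3, against 1170.0, 1370.4 and 1029 CPM in WT replicates 1 to 3, with 7 of the 12 called higher and 0 lower and none at 0. The 8 monocyte markers, of which 7 were tested, 5 called higher and 0 lower, summed to 1808, 2103 and 2127 CPM in IRF4-deficient replicates 1 to 3, against 1081, 993 and 868 CPM in WT replicates 1 to 3, also without overlap. A mean of the red pulp macrophage markers, called the red pulp index, was a term in an alternative fit, whose values are given below. No fit with the monocyte markers as a term was made, so their part in the values of the members was not tested. WT replicate 3 stood apart in the immediate early gene Egr1, which had 235, 283 and 224 CPM in IRF4-deficient replicates 1 to 3, against 834, 672 and 72.0 CPM in WT replicates 1 to 3.

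Of the 38 members, 9 rose and 10 fell in IRF4-deficient cells (edgeR's quasi-likelihood test, Benjamini-Hochberg adjusted p under 0.05 over all genes tested). The receptors Tlr5 and Tlr3 and the sensor gene Mb21d1 rose, while Tlr11, Tlr7 and the endosomal chaperone gene Unc93b1 fell. The members called made up 50% of the list, beside 20.4% of all 11934 genes tested, with 9.87% of all genes called higher and 10.5% lower. All 38 members passed the filter on low counts. Their median log2 fold change was 0.09 and the median of its absolute value 0.40, beside 0.0025 and 0.26 over all genes tested. In 25 members the groups did not overlap in CPM, 14 with every IRF4-deficient library above every WT library and 11 below, beside 35.6% of all genes tested that did not overlap. The set was mixed in direction, and each compartment held members of both directions.

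**Figure D1:**
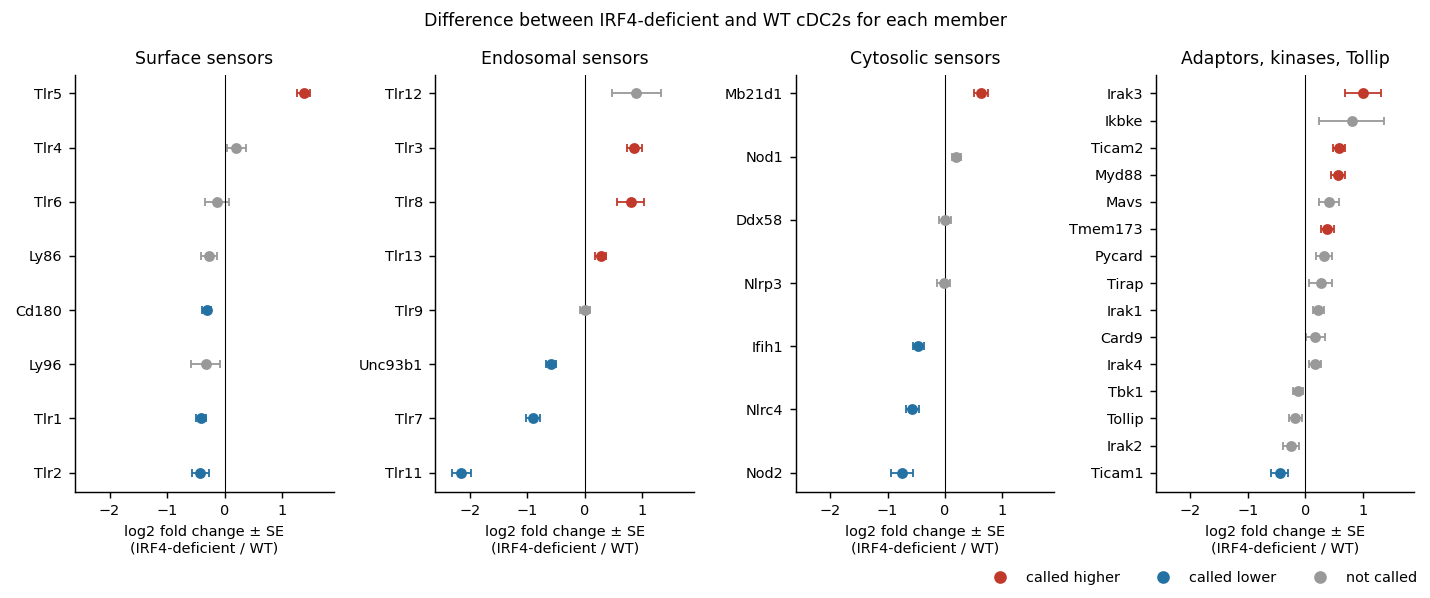
Log2 fold change of IRF4-deficient over WT cells (x axis, point, bar = SE) for the 38 members, in panels by compartment, coloured by the edgeR call. Tlr5 lies farthest to the right at 1.38 and Tlr11 farthest to the left at -2.15, and 4 of the 5 called genes among adaptors, kinases and Tollip lie to the right of 0. Over all genes tested, 9.87% were called higher and 10.5% lower.

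The promoters of the receptors with the largest called change in each direction are shown because IRF4 binds DNA at known elements, either alone at paired GAAA repeats or with ETS or AP-1 partners. They are RefSeq sequences on GRCm38.p6, each 250 bases before to 50 after the transcription start, 5′ to 3′ on the gene's own strand. Capitals mark a match to GAAANNGAAA, the repeat of an interferon-stimulated response element. Tlr11, which fell, lies at chr14:50357664-50357963, plus strand; Tlr5, which rose, at chr1:182954538-182954837, plus strand; and Tlr12, whose product shares the ligand profilin with TLR11, at chr4:128618570-128618869, minus strand.
Tlr11: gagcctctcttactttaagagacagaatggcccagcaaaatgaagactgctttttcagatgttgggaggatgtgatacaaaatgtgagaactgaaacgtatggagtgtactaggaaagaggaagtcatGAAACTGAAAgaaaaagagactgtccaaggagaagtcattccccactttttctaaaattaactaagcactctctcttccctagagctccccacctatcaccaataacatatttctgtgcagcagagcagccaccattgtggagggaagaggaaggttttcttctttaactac
Tlr5: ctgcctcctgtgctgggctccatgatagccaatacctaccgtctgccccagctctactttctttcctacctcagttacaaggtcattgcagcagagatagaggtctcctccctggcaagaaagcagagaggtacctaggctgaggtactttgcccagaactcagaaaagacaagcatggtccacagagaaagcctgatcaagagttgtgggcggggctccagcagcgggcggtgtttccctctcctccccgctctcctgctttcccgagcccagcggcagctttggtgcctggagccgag
Tlr12: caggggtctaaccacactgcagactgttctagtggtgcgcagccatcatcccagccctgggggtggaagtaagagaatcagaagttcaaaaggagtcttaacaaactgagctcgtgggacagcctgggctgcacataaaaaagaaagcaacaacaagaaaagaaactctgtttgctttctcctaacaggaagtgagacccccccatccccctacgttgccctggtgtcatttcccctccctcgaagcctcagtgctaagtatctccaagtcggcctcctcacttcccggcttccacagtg
The Tlr11 promoter held 1 match, which began 122 bases before the start, and those of Tlr5 and Tlr12 held 0. In all, 32 of the 38 members had 40 promoter entries in this table, and 5 entries (12.5%) held GAAANNGAAA on either strand, beside 3.44% of all 32851 promoters. The others were Myd88 (GAAAGCGAAA, 40 bases before the start), Ifih1 (GAAACAGAAA, from base 33 of the transcript), Ddx58 (TTTCGATTTC, from base 3 of the transcript, a match on the opposite strand) and Tlr6 (TTTCTCTTTC and TTTCACTTTC, 116 and 110 bases before the start, which overlap, also on the opposite strand). The bases just after the start of that Tlr6 entry were not found in a GENCODE transcript of Tlr6, and the other Tlr6 entry held 0 matches. The genes with a match went different ways: Tlr11 and Ifih1 fell, Myd88 rose, and Ddx58 and Tlr6 were not called. The ETS-IRF composite GGAANNGAAA was in 0 of the 40 entries, beside 2.72% of all promoters, and the AP-1 element TGANTCA in 2, those of Tlr9 and Ikbke, beside 7.81%. A match describes the letters in this window and is not a binding site.

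At the cell surface, 1 of the 8 members rose and 3 fell, with a median log2 fold change of -0.29. This made 50% called, beside 20.4% of all genes tested. Tlr5, the receptor for bacterial flagellin (GRCm38, chromosome 1, 182954788 to 182976044, plus strand), had 134, 135 and 153 CPM in IRF4-deficient replicates 1 to 3, against 61.0, 50.4 and 51.5 CPM in WT replicates 1 to 3. Every IRF4-deficient library lay above every WT library, at a 2.60-fold higher mean (log2 fold change 1.38, SE 0.12, edgeR adjusted p = 5.56e-08), and Tlr5 was called under each alternative. Tlr1, whose product pairs with TLR2 to bind bacterial triacyl lipopeptides, had 198, 202 and 236 CPM in IRF4-deficient libraries, against 272, 288 and 285 CPM in WT libraries. It fell 1.33-fold without overlap of the groups (log2 fold change -0.41, SE 0.09, edgeR adjusted p = 0.00259). Tlr2 stood at 31.0, 36.2 and 30.0 CPM in IRF4-deficient libraries, against 45.4, 45.4 and 39.2 CPM in WT libraries, also without overlap. Its fall by 0.42 on the log2 scale was near the threshold (SE 0.15, edgeR adjusted p = 0.0466). It was not called by DESeq2 (adjusted p = 0.0538), nor in edgeR without IRF4-deficient replicates 1 or 3 or WT replicates 1, 2 or 3 (adjusted p = 0.119, 0.0961, 0.131, 0.167 and 0.0522, range over its 16 alternatives 0.0404 to 0.313).

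Tlr6, the other partner of TLR2, stood at 26.0, 36.1 and 19.2 CPM in IRF4-deficient libraries, against 27.7, 35.6 and 25.3 CPM in WT libraries, and its groups overlapped (log2 fold change -0.13, SE 0.21, edgeR adjusted p = 0.714). Tlr1 and Tlr6 lie next to each other on the minus strand of chromosome 5, Tlr1 from 64924679 to 64933563 and Tlr6 from 64952031 to 64960097. Of the 50-base words in their GENCODE transcripts, 15.4% for Tlr1 and 12.3% for Tlr6 also occur in transcripts of other genes, so part of their reads could have been shared or dropped. Tlr4, the receptor for bacterial lipopolysaccharide, had 28.1, 35.6 and 42.6 CPM in IRF4-deficient libraries, against 31.7, 28.5 and 32.1 CPM in WT libraries and was not called (log2 fold change 0.20, SE 0.17, edgeR adjusted p = 0.445). Its 42.6 CPM was reached in the IRF4-deficient library with the most red pulp macrophage RNA. With the red pulp index in the fit, the log2 fold change of Tlr4 was -0.27 (edgeR adjusted p = 0.706). The part of that RNA in the Tlr4 value was not tested further. Ly96, which encodes the lipopolysaccharide-binding partner MD-2, was not called either, at 11.0 ± 3.33 CPM in IRF4-deficient cells, against 13.7 ± 0.791 CPM in WT cells (mean ± SD, n = 3 each).

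Cd180, a TLR-related surface receptor best known from B cells (also called RP105), had 662, 617 and 661 CPM in IRF4-deficient libraries, against 772, 807 and 835 CPM in WT libraries, and fell 1.24-fold with no overlap (log2 fold change -0.31, SE 0.07, edgeR adjusted p = 0.00482). It was not called with the red pulp index in the fit (edgeR adjusted p = 0.333, range over its 16 alternatives 0.00142 to 0.333). The B cell marker sums given above overlapped between the groups, but of the 7 markers 1 was called higher (Cd79b) and 2 lower. Those lower were Ms4a1 (IRF4-deficient 11.4 ± 1.62 CPM, WT 23.7 ± 3.12 CPM) and Cr2 (IRF4-deficient 13.1 ± 3.53 CPM, WT 32.8 ± 1.57 CPM). The part of B cells in the Cd180 value was not tested. Ly86, which encodes the CD180 partner MD-1, had 209, 175 and 262 CPM in IRF4-deficient libraries, against 301, 247 and 233 CPM in WT libraries and was not called (edgeR adjusted p = 0.183). Without IRF4-deficient replicate 3, the library with its highest level in that group, it was called lower (edgeR adjusted p = 0.0148, range over its 16 alternatives 0.0148 to 0.532).

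**Figure D2:**
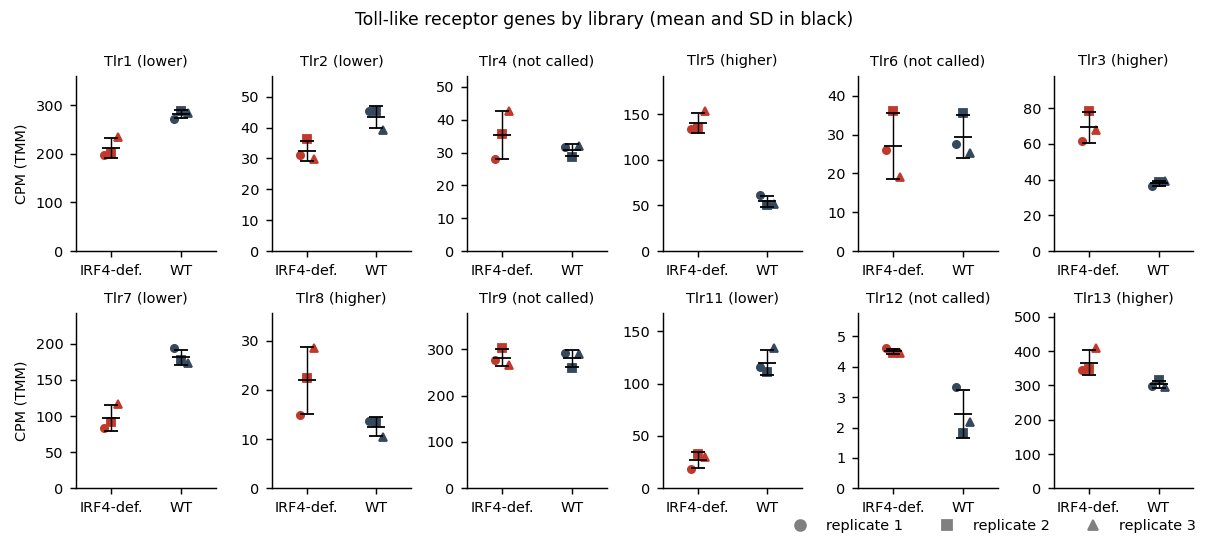
CPM (y axis, from 0, scaled per panel) of the 12 Toll-like receptor genes in IRF4-deficient and WT libraries. Symbols are replicates and black marks give the mean and SD (n = 3 each). The groups are apart for Tlr3, Tlr5, Tlr8, Tlr12 and Tlr13, higher in IRF4-deficient cells, and for Tlr1, Tlr2, Tlr7 and Tlr11, lower there.

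Among endosomal members 3 of 8 rose and 3 fell, or 75% called, beside 20.4% of all genes tested. They had the widest range of the compartments, with log2 fold changes from -2.15 to 0.90 and a median of 0.14. Tlr11, a receptor for profilin of Toxoplasma-type parasites in the mouse (GRCm38, chromosome 14, 50357914 to 50363663, plus strand), had 18.8, 32.8 and 30.1 CPM in IRF4-deficient replicates 1 to 3, against 115, 111 and 133 CPM in WT replicates 1 to 3. The highest IRF4-deficient library lay below the lowest WT library, and Tlr11 fell 4.43-fold (log2 fold change -2.15, SE 0.17, edgeR adjusted p = 1.41e-07), the largest change of any member. It was called under each alternative. Tlr12, whose product pairs with TLR11 in profilin recognition, was nearly silent. It had 50, 36 and 40 counts in IRF4-deficient and 24, 20 and 16 counts in WT libraries, or 4.50 ± 0.0867 CPM in IRF4-deficient cells, against 2.44 ± 0.782 CPM in WT cells (mean ± SD, n = 3 each). Its level was above WT in all 3 IRF4-deficient libraries but was not called (log2 fold change 0.90, SE 0.42, edgeR adjusted p = 0.154).

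Tlr7, the receptor for single-stranded RNA, fell 1.86-fold, with 83.0, 91.7 and 117 CPM in IRF4-deficient libraries, against 193, 177 and 173 CPM in WT libraries (log2 fold change -0.90, SE 0.12, edgeR adjusted p = 1.45e-05). All IRF4-deficient values lay below all WT values. Its neighbour and closest relative Tlr8 rose, with 14.9, 22.4 and 28.4 CPM in IRF4-deficient libraries, against 13.7, 13.5 and 10.4 CPM in WT libraries (log2 fold change 0.80, SE 0.24, edgeR adjusted p = 0.0214). The groups of Tlr8 lay close but did not overlap. Both are on the minus strand of the X chromosome, Tlr8 from 167242696 to 167264329 and Tlr7 from 167304929 to 167330558. The count of Tlr8 over that of Tlr7, a ratio within each library that needs no scaling, was 0.180, 0.244 and 0.243 in IRF4-deficient and 0.0708, 0.0766 and 0.0600 in WT libraries. Every IRF4-deficient ratio was above every WT ratio. The rise of Tlr8 was less stable than the fall of Tlr7. Tlr7 was called under each alternative, whereas Tlr8 was not called when IRF4-deficient replicate 2, IRF4-deficient replicate 3 or WT replicate 3 was left out (edgeR adjusted p = 0.0581, 0.117 and 0.0948, range over its 16 alternatives 0.00331 to 0.891). Tlr8 was also highest in the 2 IRF4-deficient libraries with the most red pulp macrophage RNA. With an index of those markers in the fit its log2 fold change was -0.15 (adjusted p = 0.891). The monocyte marker sums also did not overlap between the groups, and the part of either cell type in the Tlr8 value was not tested further. In bulk RNA, fewer cells of a type and less RNA per cell cannot be told apart.

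Tlr3, the double-stranded RNA receptor, rose 1.82-fold, with 61.5, 78.4 and 67.9 CPM in IRF4-deficient libraries, against 36.4, 38.5 and 39.1 CPM in WT libraries (log2 fold change 0.86, SE 0.13, edgeR adjusted p = 8.07e-05). Its lowest IRF4-deficient library was above the highest WT library. It was called without each library in turn, but not with this index in the fit (edgeR adjusted p = 0.0845, range over its 16 alternatives 6.96e-08 to 0.0845). Of 8 cDC1 markers, 5 were called higher and 2 lower. Among these, Clec9a (IRF4-deficient 81.8 ± 17.7 CPM, WT 47.8 ± 7.70 CPM), Xcr1 (IRF4-deficient 28.2 ± 7.11 CPM, WT 16.3 ± 5.90 CPM) and Irf8 (IRF4-deficient 127 ± 17.2 CPM, WT 47.7 ± 7.44 CPM) were higher, while Batf3 was lower (IRF4-deficient 27.0 ± 1.50 CPM, WT 66.3 ± 1.62 CPM). The 8 together summed to 968 to 1118 CPM in IRF4-deficient libraries, against 1707 to 1846 CPM in WT libraries, mostly Wdfy4 (IRF4-deficient 732 ± 40.1 CPM, WT 1577 ± 70.3 CPM). Their part in the values of Tlr3, Tlr11 and the other members was not tested.

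Tlr13, which detects bacterial ribosomal RNA in the mouse, rose 1.21-fold, with 344, 347 and 408 CPM in IRF4-deficient libraries, against 299, 315 and 295 CPM in WT libraries (log2 fold change 0.27, SE 0.09, edgeR adjusted p = 0.0322). The groups did not overlap, but the call was lost without IRF4-deficient replicate 3 or any 1 of WT replicates 1, 2 and 3 (edgeR adjusted p = 0.116, 0.0789, 0.0662 and 0.104, range over its 16 alternatives 0.0246 to 0.878). With the red pulp index Tlr13 had a log2 fold change of 0.07 (adjusted p = 0.878). Tlr9, the receptor for unmethylated CpG DNA, had 276, 301 and 266 CPM in IRF4-deficient libraries, against 292, 258 and 289 CPM in WT libraries, and its groups overlapped throughout (log2 fold change 0.01, SE 0.09, edgeR adjusted p = 0.966). Unc93b1, the chaperone that carries the nucleic acid-sensing receptors to endosomes, fell 1.50-fold. It had 375, 389 and 397 CPM in IRF4-deficient libraries, against 596, 624 and 524 CPM in WT libraries without overlap (log2 fold change -0.59, SE 0.08, edgeR adjusted p = 3.62e-05) and was called under each alternative. Of the endosomal receptors it serves, Tlr7 and Tlr11 also fell, whereas Tlr3, Tlr8 and Tlr13 rose.

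**Figure D3:**
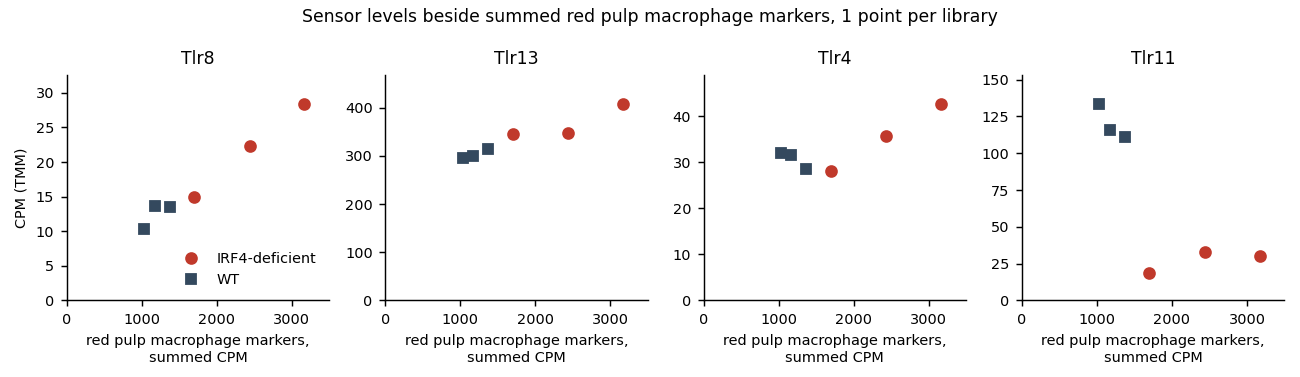
CPM of Tlr8, Tlr13, Tlr4 and Tlr11 (y axes) against the summed CPM of 12 red pulp macrophage markers (x axis), 1 point per library. Tlr8 was highest in the IRF4-deficient library with 3169 CPM of these markers, while Tlr11 was 18.8 to 32.8 CPM in all 3 IRF4-deficient libraries.

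Levels of different receptors were compared as CPM per kilobase of exon, using the union of annotated exons. In IRF4-deficient cells Tlr13 (85.1 ± 8.33), Tlr9 (80.9 ± 5.18) and Tlr1 (63.3 ± 6.15) were the most abundant, against 70.4 ± 2.46, 80.5 ± 5.40 and 84.2 ± 2.50 for the same genes in WT cells (mean ± SD, n = 3 each). The library ranges of Tlr13 and Tlr9 overlapped in IRF4-deficient cells, and in WT cells those of Tlr1 and Tlr9 did, so their order is not settled. Next came Tlr5 at 29.4 ± 2.30 and Tlr7 at 23.8 ± 4.33 in IRF4-deficient cells, whose ranges overlapped, whereas in WT cells Tlr5 was at 11.3 ± 1.22 and Tlr7 at 44.4 ± 2.67. Tlr3, Tlr2, Tlr11, Tlr6, Tlr4 and Tlr8 followed in IRF4-deficient cells between 13.3 ± 1.64 and 6.10 ± 1.88, each overlapping with the next. In WT cells Tlr11 came after Tlr7 at 36.6 ± 3.63, followed by Tlr2, Tlr5, Tlr6, Tlr3, Tlr4 and Tlr8, of which only Tlr6 and Tlr3 overlapped as neighbours in this order. Tlr12 was last in both. As a share of the summed level per kilobase of the 12 receptors, Tlr5 took 8.74% in IRF4-deficient and 3.09% in WT cells, Tlr7 7.09% in IRF4-deficient and 12.1% in WT cells, and Tlr11 2.47% in IRF4-deficient and 9.99% in WT cells.

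**Figure D4:**
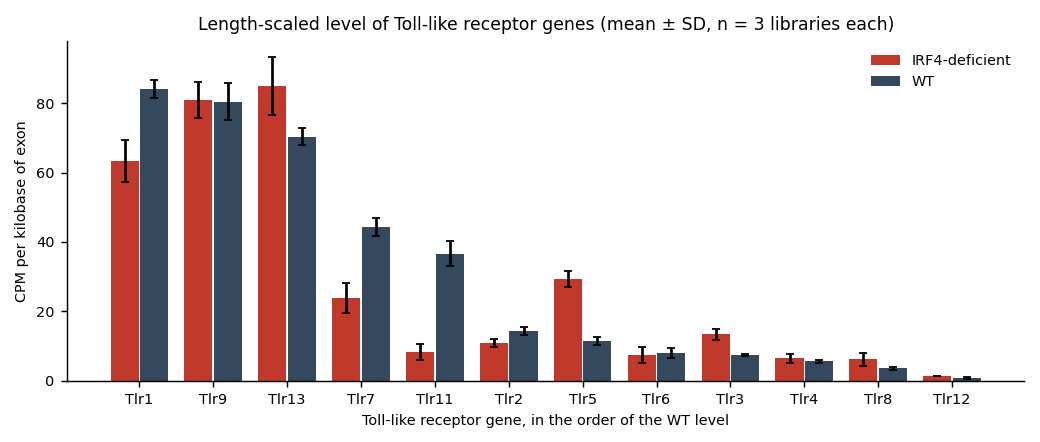
Level of each Toll-like receptor gene as CPM per kilobase of exon (y axis), IRF4-deficient and WT side by side, in the order of the WT level (bars = mean, whiskers = SD, n = 3). Tlr1, Tlr9 and Tlr13 lead in both groups, and Tlr11 is above Tlr5 in WT cells and below it in IRF4-deficient cells.

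In the cytosol 1 of 7 sensors rose and 3 fell, with a median log2 fold change of -0.03. That was 57.1% called, beside 20.4% of all genes tested. Mb21d1 (cGAS), which makes the second messenger cGAMP on binding DNA, rose 1.54-fold. It had 120.4, 97.1 and 95.6 CPM in IRF4-deficient libraries, against 68.9, 62.8 and 72.1 CPM in WT libraries, with no overlap (log2 fold change 0.62, SE 0.12, edgeR adjusted p = 8.57e-04). The RNA helicases differed. Ifih1 (MDA5), which binds long double-stranded RNA, fell 1.38-fold, with 157, 172 and 157 CPM in IRF4-deficient libraries, against 217, 237 and 217 CPM in WT libraries (log2 fold change -0.46, SE 0.09, edgeR adjusted p = 8.93e-04). Ddx58 (RIG-I), which binds short RNA with a 5′ triphosphate, had 159, 131 and 136 CPM in IRF4-deficient libraries, against 156, 142 and 127 CPM in WT libraries and was not called (edgeR adjusted p = 0.982). The groups overlapped for Ddx58 and not for Ifih1. Ifih1 lost its call with the red pulp index (edgeR adjusted p = 0.0633, range over its 16 alternatives 4.09e-05 to 0.0633).

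Among NOD-like receptors, Nod2, which responds to muramyl dipeptide, fell 1.68-fold, with 12.9, 18.0 and 16.3 CPM in IRF4-deficient libraries, against 28.1, 27.4 and 23.6 CPM in WT libraries (log2 fold change -0.75, SE 0.19, edgeR adjusted p = 0.00755). Every IRF4-deficient value of Nod2 was below every WT value. Nod1, which responds to peptidoglycan with diaminopimelic acid, stood at 310.4, 281 and 304 CPM in IRF4-deficient libraries, against 259.6, 269 and 253 CPM in WT libraries. Every IRF4-deficient value of Nod1 was above every WT value, but it was not called (log2 fold change 0.20, SE 0.08, edgeR adjusted p = 0.109). Nlrc4, the inflammasome protein that acts with NAIPs on flagellin and secretion system proteins, fell 1.48-fold, with 72.2, 71.6 and 62.9 CPM in IRF4-deficient libraries, against 93.2, 109.9 and 103 CPM in WT libraries (log2 fold change -0.57, SE 0.11, edgeR adjusted p = 0.00121). It did not overlap between the groups but was not called with the red pulp index (edgeR adjusted p = 0.251, range over its 16 alternatives 8.75e-05 to 0.251). Of the NAIP genes whose products bind flagellin, Naip5 had 63.1, 83.5 and 70.4 CPM in IRF4-deficient libraries, against 78.0, 87.3 and 78.8 CPM in WT libraries, and Naip6 had 27.3, 30.5 and 23.2 CPM in IRF4-deficient libraries, against 31.1, 31.8 and 32.9 CPM in WT libraries. Neither was called (edgeR adjusted p = 0.376 for Naip5 and 0.328 for Naip6). Both were singled out after their values were seen. Nlrp3, the inflammasome sensor of cell damage, had 108 ± 1.91 CPM in IRF4-deficient cells, against 111 ± 17.3 CPM in WT cells and was not called (log2 fold change -0.03, SE 0.11).

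Among 15 adaptors, kinases and inhibitors, 4 rose and 1 fell, with a median log2 fold change of 0.27. Those called were 33.3%, beside 20.4% of all genes tested, with 9.87% higher and 10.5% lower. Myd88, the shared adaptor of most TLRs, rose 1.48-fold, with 79.1, 73.4 and 79.5 CPM in IRF4-deficient libraries, against 56.8, 46.4 and 53.5 CPM in WT libraries and no overlap (log2 fold change 0.57, SE 0.12, edgeR adjusted p = 0.00218). It was not called with the red pulp index (edgeR adjusted p = 0.0944, range over its 16 alternatives 2.40e-04 to 0.0944). Of its exon bases 11.3% lie under exons of Acaa1a on the other strand, whose reads cannot be told apart without a known strand setting. Among called members, opposite-strand exons also cover 7.3% of the exon bases of Tlr3, 6.0% of Irak3, 4.9% of Mb21d1 and 4.0% of Cd180. The adaptors of the TRIF branch differed in sign. Ticam1 (TRIF), used by TLR3 and TLR4, fell 1.36-fold, with 46.6, 57.5 and 69.3 CPM in IRF4-deficient libraries, against 82.7, 66.8 and 86.2 CPM in WT libraries. These groups overlapped, and the call (log2 fold change -0.44, SE 0.15, edgeR adjusted p = 0.0396) was lost without IRF4-deficient replicates 1 or 2 or WT replicates 1 or 3 (adjusted p = 0.188, 0.105, 0.118 and 0.157, range over its 16 alternatives 0.00553 to 0.188). Ticam2 (TRAM), which links TLR4 to TRIF, rose 1.50-fold, with 181, 145 and 167 CPM in IRF4-deficient libraries, against 102, 106 and 121 CPM in WT libraries (log2 fold change 0.59, SE 0.11, edgeR adjusted p = 4.98e-04). Each IRF4-deficient library was above each WT library. Its exons overlap those of Tmed7 on the same strand over 14.5% of their length. Tmed7 itself was not called, at 110.0 ± 4.38 CPM in IRF4-deficient cells, against 104 ± 0.974 CPM in WT cells, and the count of Ticam2 over that of Tmed7 was 1.58, 1.37 and 1.53 in IRF4-deficient and 0.976, 1.02 and 1.18 in WT libraries. Tirap, which brings MyD88 to surface receptors, was not called, at 24.2 ± 4.83 CPM in IRF4-deficient cells, against 20.2 ± 2.94 CPM in WT cells.

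Tmem173 (STING), the receptor for cGAMP, rose 1.30-fold, with 179, 131 and 146 CPM in IRF4-deficient libraries, against 115, 110.5 and 125 CPM in WT libraries (log2 fold change 0.38, SE 0.11, edgeR adjusted p = 0.0210). The groups did not overlap, but it was not called without IRF4-deficient replicate 1 or WT replicates 1 or 2 (adjusted p = 0.146, 0.0622 and 0.106, range over its 16 alternatives 0.00818 to 0.146). Both genes of the cGAS-STING pair were thus above WT in each IRF4-deficient library. Mavs, the adaptor of RIG-I and MDA5, had 30.5, 35.5 and 43.0 CPM in IRF4-deficient libraries, against 25.3, 31.7 and 24.4 CPM in WT libraries. It was not called with all 6 libraries (log2 fold change 0.41, SE 0.17) and was called higher without IRF4-deficient replicate 1 (edgeR adjusted p = 0.0485, range over its 16 alternatives 0.0485 to 0.911). Pycard (ASC), the inflammasome adaptor, stood at 46.2 ± 4.99 CPM in IRF4-deficient cells, against 36.7 ± 2.85 CPM in WT cells, and neither it nor Card9, the adaptor below C-type lectin receptors, was called. Card9 had 29.3, 39.8 and 42.5 CPM in IRF4-deficient libraries, against 30.8, 33.3 and 34.3 CPM in WT libraries.

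Irak3 (IRAK-M), an inhibitor of MyD88 signalling, rose 2.01-fold at low counts, with 8.19, 14.3 and 8.46 CPM in IRF4-deficient libraries, against 6.50, 4.91 and 3.96 CPM in WT libraries (log2 fold change 1.01, SE 0.32, edgeR adjusted p = 0.0296). The groups did not overlap, but it was not called without IRF4-deficient replicate 2 or WT replicates 2 or 3 (adjusted p = 0.179, 0.0952 and 0.117, range over its 16 alternatives 0.0237 to 0.637), nor with the red pulp index (0.637). None of Irak1, Irak2, Irak4, Tbk1 and Ikbke passed the test with all 6 libraries. Irak4 had 120.1, 122 and 115 CPM in IRF4-deficient libraries, against 107, 103 and 107 CPM in WT libraries. Irak1, which acts next to Irak4 below MyD88, had 228, 196 and 246 CPM in IRF4-deficient libraries, against 179.5, 196 and 196 CPM in WT libraries. Neither was called (edgeR adjusted p = 0.249 for Irak4 and 0.109 for Irak1), although Irak1 was called higher without IRF4-deficient replicate 2 (adjusted p = 0.0368, range over its 16 alternatives 0.0368 to 0.613). Irak2 (IRF4-deficient 57.2 ± 7.52 CPM, WT 67.8 ± 8.05 CPM), Tollip, a negative regulator (IRF4-deficient 65.2 ± 3.79 CPM, WT 73.5 ± 3.68 CPM), and Tbk1, the kinase that activates IRF3 (IRF4-deficient 132 ± 2.48 CPM, WT 144 ± 6.15 CPM), were not called. Ikbke, the relative of Tbk1, was low, with 11, 27 and 40 counts in IRF4-deficient and 10, 17 and 15 counts in WT libraries, and was not called (log2 fold change 0.81, SE 0.56, edgeR adjusted p = 0.361). Its counts were highest in the 2 IRF4-deficient libraries with the most red pulp macrophage RNA, and with that index in the fit the log2 fold change was -1.08.

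**Figure D5:**
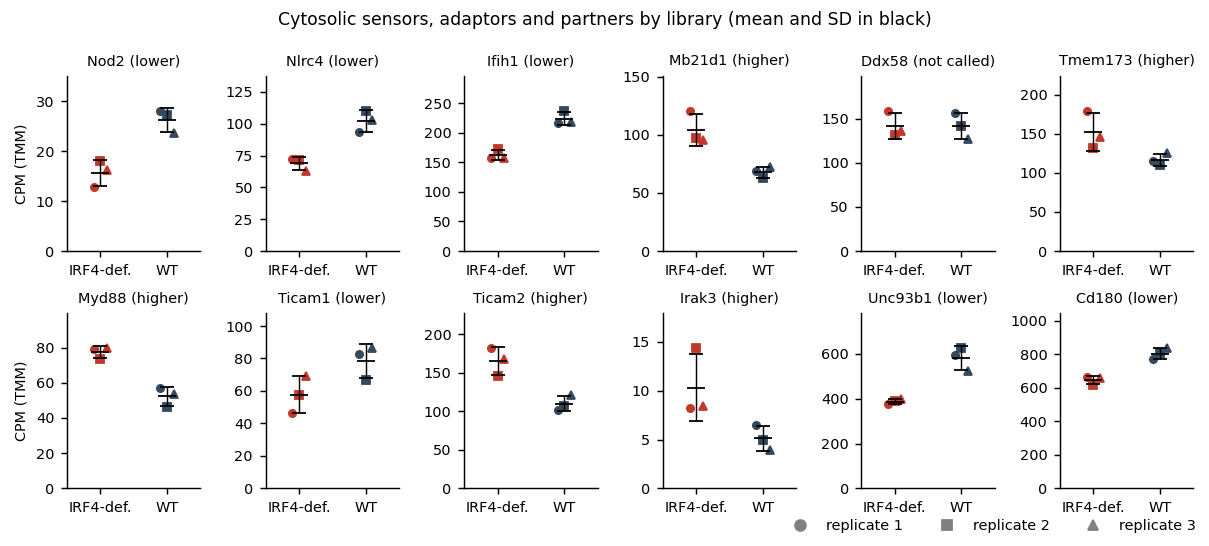
CPM (y axis, from 0, scaled per panel) of 12 cytosolic sensors, adaptors and receptor partners in IRF4-deficient and WT libraries. Symbols are replicates and black marks the mean and SD (n = 3 each). Mb21d1, Myd88, Ticam2, Tmem173 and Irak3 lie above WT in every IRF4-deficient library, and Nod2, Nlrc4, Ifih1, Unc93b1 and Cd180 below.

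Other genes of these pathways were read from lists by role, chosen with earlier results of these data known, and stand again beside 20.4% of all genes called. Of 28 tested genes of TLR signalling 3 rose and 6 fell, with a median log2 fold change of -0.13. Among those that fell were the NF-kB subunit gene Rel (356 ± 16.5 CPM in IRF4-deficient cells, against 647 ± 72.2 CPM in WT cells), the NF-kB inhibitor Tnfaip3 (IRF4-deficient 116 CPM, WT 216 CPM) and the IKK-alpha gene Chuk (IRF4-deficient 128 ± 10.8 CPM, WT 208 ± 21.1 CPM). Nfkb1 rose to 675 ± 23.0 CPM in IRF4-deficient cells, against 451 ± 22.8 CPM in WT cells, and the ubiquitin ligase gene Peli2 to 14.3 ± 2.10 CPM in IRF4-deficient cells, against 2.09 ± 1.01 CPM in WT cells. The ubiquitin ligase gene Traf6 and the kinase genes Map3k7 and Ikbkb, at 121, 128 and 149 CPM in IRF4-deficient and 149, 132 and 156 CPM in WT cells, were not called.

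Of 22 accessory and trafficking genes of TLRs 4 rose and 3 fell (median log2 fold change 0.07). Cd14, the lipopolysaccharide co-receptor and a monocyte marker, was low and rose, with 12.7 ± 3.33 CPM in IRF4-deficient cells, against 4.68 ± 1.25 CPM in WT cells. The endolysosomal transporter gene Slc15a3 rose (IRF4-deficient 55.1 ± 8.04 CPM, WT 33.5 ± 2.94 CPM), and Cnpy3, a chaperone gene for TLR folding, fell (IRF4-deficient 101 ± 13.2 CPM, WT 135 ± 14.9 CPM). Hsp90b1, the other folding chaperone (gp96), was not called at 717 ± 63.0 CPM in IRF4-deficient cells, against 770.2 ± 39.4 CPM in WT cells. The part of the monocyte markers, whose sums are given above, in the Cd14 value was not tested.

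Of 25 genes around RIG-I-like receptors and cGAS-STING 3 rose and 6 fell (median -0.06). Zbp1, a sensor of left-handed nucleic acid, fell to 35.1 ± 1.03 CPM in IRF4-deficient cells, against 87.5 ± 10.2 CPM in WT cells. Trafd1 fell too (IRF4-deficient 139 ± 19.9 CPM, WT 267 ± 10.9 CPM), and Enpp1, whose product degrades cGAMP, rose (IRF4-deficient 16.9 ± 2.46 CPM, WT 6.04 ± 1.98 CPM). Of 21 NOD-like receptor and inflammasome genes 3 rose and 7 fell (median -0.17). Mefv, which encodes the inflammasome sensor pyrin, fell to 87.4 ± 8.07 CPM in IRF4-deficient cells, against 265 ± 37.1 CPM in WT cells, and Nlrp1b to 39.7 ± 8.32 CPM in IRF4-deficient cells, against 111 ± 12.5 CPM in WT cells. Casp8 and Txnip rose, by log2 fold changes of 0.36 (SE 0.09) and 0.37 (SE 0.08), and the pore-forming gasdermin gene Gsdmd was not called at 130.3 CPM in IRF4-deficient cells, against 131 CPM in WT cells. Of 9 genes of CARD9 signalling 3 rose and 3 fell (median -0.30): Plcg2 rose (IRF4-deficient 302 ± 2.22 CPM, WT 217 ± 8.86 CPM) and Rasgrf1 fell to a low level (IRF4-deficient 3.19 ± 1.21 CPM, WT 23.9 ± 5.30 CPM). The kinase Syk rose by 0.25 (SE 0.08) and the CARD9 partner Malt1 fell by 0.38 (SE 0.08) on the log2 scale.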

How the data were processed

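The values are the whole-number counts the authors deposited, 14535 gene rows by 6 libraries. The mm10 (GRCm38) build and the tools HTSeq, STAR and DESeq2 are listed, with no versions, per the submitters' processing notes. Annotation, strand setting and any row filter: not given in the sources used here. WT columns were tied to samples through the labels' source names, since their numbers differ from those in the titles.

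Genes passing edgeR's filterByExpr were tested, IRF4-deficient against WT, with edgeR 4.0.16 (TMM, robust glmQLFit and glmQLFTest, R 4.3.3) over all 11934 genes kept, at a Benjamini-Hochberg adjusted p under 0.05. SE comes from the F statistic. The steps were tested on simulated data. Replicates differed beyond counting noise (chi-square per degree of freedom 7.66 to 15.9). Each library counted as 1 replicate, although this spread does not show that the libraries came from separate animals. Alternatives were DESeq2 1.42.0, limma-voom (limma 3.58.1), other scalings and filters, no robust shrinkage, a replicate block, removal of Rn45s and Malat1, a covariate (mean log2(CPM + 1) of 12 red pulp macrophage genes) and leaving out each library. Gene positions and exon lengths are from GENCODE M21. The members and lists were chosen with earlier results of these data known. All members could be named, and of each other list the called genes with the smallest p and abundant uncalled ones. Promoters are RefSeq's.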

Additional observations from a re-analysis of the deposited data

How the results depend on the processing

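Of the 19 members called, 8 were called under each of the 16 alternatives that gave a value for them (Tlr1, Tlr5, Tlr7, Tlr11, Unc93b1, Nod2, Mb21d1 and Ticam2), and Cd180, Tlr3, Nlrc4, Ifih1 and Myd88 lost the call with the red pulp covariate alone. Tlr2, Tlr8, Tlr13, Ticam1 and Irak3 lost it there and without single libraries, and Tmem173 without single libraries alone. Over all 16 alternatives, the log2 fold change was -0.34 to -0.27 for Cd180, -0.63 to -0.45 for Nlrc4 and -0.53 to -0.42 for Ifih1. For Tlr3 it was 0.69 to 0.95 and for Myd88 0.49 to 0.63, again with the covariate fit included. Leaving out 1 library gave 6 to 9 members called higher and 8 to 10 lower. Over all genes it gave 1779 to 2431 calls, in place of 2429. By compartment it gave 1 higher and 2 to 3 lower at the surface, 1 to 3 higher and 3 lower in endosomes, 1 higher and 3 lower in the cytosol, and 2 to 4 higher and 0 to 1 lower among adaptors and kinases. With the red pulp index in the fit, 4 members were called higher and 5 lower, with 1 lower at the surface, 0 higher in endosomes, 1 lower in the cytosol, and 2 higher and 0 lower among adaptors and kinases. That index did not overlap between the groups, so this fit cannot fully tell the index apart from genotype. Its SE was 0.163 for Tlr1 and 0.268 for Tlr2, against 0.090 and 0.145 in the main fit. Calls over all genes were 844 in place of 2429. The cause of the lost calls was not tested. In the covariate fit the log2 fold changes of Tlr8 (-0.15), Tlr4 (-0.27), Mavs (-0.097), Card9 (-0.29), Ikbke (-1.08) and Tollip (0.0047) had the opposite sign. None of these was called there, and only Tlr8 was called before. Uncalled members near 0 also changed sign: Ddx58 was at -0.00014 with upper-quartile factors, and leaving out 1 library gave -0.079 to 0.079 for Ddx58, -0.050 to 0.043 for Tlr9, -0.38 to 0.057 for Tlr6 and -0.11 to 0.11 for Nlrp3. With the replicate block, 8 members were called higher and 9 lower. Tlr2 (edgeR adjusted p = 0.0596) and Tlr13 (0.0589) were not called, and the numbers do not pair the libraries: same-numbered libraries deviated from their group means with correlations of -0.0048, 0.051 and -0.011, and 2 of 6 libraries correlated best with their own number. DESeq2, no filter and removal of Rn45s and Malat1 each changed only the call of Tlr2. The other scalings moved the median of all genes by less than 0.01 (log2). Tlr12 and Ikbke had no value under the filter of 5 CPM in 3 libraries.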
